A study of Mus musculus with 12 samples.

Results

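The genes described are the phagocyte NADPH oxidase genes Cybb, Cyba, Ncf1 and Ncf4 with the small GTPase genes Rac1 and Rac2. They were taken by symbol from a table of read counts for 35976 genes, and all 6 were found. RNA was measured in 12 libraries of sorted mouse bone marrow cells, 3 in each of 4 groups. The groups were leukemia carrying BRD9-NUTM1 (BN1), leukemia carrying MLL-AF9 (MA9), leukemia carrying MLL-ENL (ME) and normal marrow (WT). All groups were of strain C57BL/6, with cells positive for CD45.2, a form of the leukocyte surface protein CD45 encoded by Ptprc. The labels do not say how the fusions were delivered, whether their sequence is human or mouse, at what age marrow was taken, or whether each library stands for its own animal. P-values thus rest on the spread among libraries alone, and that spread may be technical.

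The phagocyte oxidase passes electrons from NADPH to oxygen and so makes superoxide, which neutrophils and macrophages use against microbes. Its catalytic chain, gp91phox or Nox2 (Cybb), sits in the membrane with a stabilising partner, p22phox (Cyba). On activation cytosolic proteins, among them p47phox (Ncf1) and p40phox (Ncf4), move to this membrane pair together with a Rac GTPase, and loss of a subunit causes chronic granulomatous disease in humans. Rac2 is largely restricted to blood cells, whereas Rac1 is made in most tissues. The oxidase genes are switched on as granulocytes and monocytes mature.

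Promoter sequences were available for 3 of the 6 genes, Cybb, Ncf1 and Cyba, and are shown for all 3. Each line holds the 150 bases before the RefSeq transcription start in assembly GRCm38.p6, read 5′ to 3′ on the gene's own strand, which is the minus strand in each case. For Cybb that start (9469324) lies 18442 bases inside the RefSeq gene bounds given for it here, whose upper end is 9487766, so the window is not the end of the annotated gene. For Ncf1 the start lies 3 bases inside the bounds, and for Cyba at their end. Capitals mark a CCAAT box (CCAAT) in Cybb and GC boxes (GGGCGG or its reverse complement) in Ncf1 and Cyba.
Cybb (chrX:9469325-9469474): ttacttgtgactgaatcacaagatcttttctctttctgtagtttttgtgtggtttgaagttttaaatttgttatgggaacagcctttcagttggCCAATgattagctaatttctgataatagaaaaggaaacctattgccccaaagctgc
Ncf1 (chr5:134229626-134229775): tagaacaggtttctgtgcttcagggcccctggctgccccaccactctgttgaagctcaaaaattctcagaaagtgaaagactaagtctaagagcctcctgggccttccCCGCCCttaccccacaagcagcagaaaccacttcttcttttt
Cyba (chr8:122432941-122433090): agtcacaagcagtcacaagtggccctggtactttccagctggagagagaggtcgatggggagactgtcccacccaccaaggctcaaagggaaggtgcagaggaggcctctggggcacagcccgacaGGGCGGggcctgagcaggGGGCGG
The CCAAT box of Cybb lay 56 to 52 bases before the start, and 33.8% of 32851 mouse promoters held CCAAT in the 250 bases before the start on either strand. Ncf1 had 1 GC box and Cyba had 2, and 32.7% of promoters held this motif. No match in these windows of 250 bases was found for the PU box GAGGAA (23.3% of promoters), the TATA box TATAAA (12.4%), an ETS-IRF composite motif (2.30%) or the C/EBP motif TTNNGNAA (36.8%). None of the searched motifs overlapped another in these promoters. These matches describe letters only and are not binding sites.

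Depth and marker levels bear on every result below. Library totals ran from 18292636 to 25732049 counts. ME replicate 3 stood apart from its group: its counts differed from those of ME replicates 1 and 2 with a mean chi-square per gene of 32.3 and 35.2, against 2.68 between those 2 libraries and at most 7.51 within the other groups. Without it no call of the 6 genes changed in the comparisons with ME, the ME against WT log2 fold changes being -2.22 for Cybb, 0.0928 for Cyba, -1.20 for Ncf1, -0.21 for Ncf4, 0.36 for Rac1 and -0.40 for Rac2. Levels are given as CPM, read counts relative to a library size scaled by TMM factors. Ptprc, the gene of the sort marker, stood between 474 and 512 CPM in BN1, between 359.8 and 415 in MA9 and between 317 and 334 in ME, against 942 to 1087 in WT. Normal marrow was a mixture. The summed level of 12 mature neutrophil markers was at least 5159 CPM in BN1 (highest 5388), 660.5 in MA9 (highest 698) and 599.9 in ME (highest 664), against 62014 to 65132 in WT, and no marker was at 0 in any group. The 6 promyelocyte markers summed to between 21447 and 22084 CPM in BN1, between 11039 and 11570.4 in MA9 and between 16831 and 17623 in ME, against 1528 to 1627 in WT. Sums of 12 monocyte and macrophage markers lay between 6620.3 and 6974 CPM in BN1, between 2742 and 2993 in MA9 and between 3473 and 3811 in ME, against 2484 to 2838 in WT. Sums of 9 B cell markers were at most 20.2 CPM in any leukemia library and at least 1113 in WT, and 8 erythroid markers were at most 32.3 CPM in leukemia and at least 33130 in WT. Fewer cells of a type and less RNA per cell cannot be told apart in such samples.

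Cybb, the catalytic subunit, fell in all 3 leukemias and was the most affected of the 6 genes. It stood at 281, 298 and 259 CPM in BN1, at 149, 163 and 148 CPM in MA9 and at 313, 318 and 333 CPM in ME, against 1598, 1401 and 1415 CPM in WT. Every leukemia library lay far below every WT library, and MA9 was below both other leukemias without overlap. In WT the gene ranked 44th by level among the 15334 genes tested, whereas it ranked 585th in BN1, 1289th in MA9 and 502nd in ME. The log2 fold change was -2.40 ± 0.06 in BN1 (adjusted p = 3.99e-23), -3.26 ± 0.06 in MA9 (adjusted p = 1.22e-25) and -2.20 ± 0.06 in ME (adjusted p = 2.52e-22). These values are edgeR quasi-likelihood estimates with an approximate standard error, and p was adjusted by Benjamini-Hochberg over all genes tested, with a call made under 0.05. In linear terms the gene was 5.27-fold lower in BN1, 9.60-fold lower in MA9 and 4.58-fold lower in ME. The 3 comparisons share the WT libraries.

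The leukemias also differed from each other in Cybb. BN1 was higher than MA9 by 0.87 ± 0.06 on the log2 scale (adjusted p = 2.95e-13), and MA9 was lower than ME (log2 fold change -1.07 ± 0.06, adjusted p = 1.19e-14). BN1 was slightly lower than ME, with a log2 fold change of -0.20 ± 0.06 (adjusted p = 0.00268). The order from low to high was thus MA9, BN1, ME and WT, and each step passed the test without overlap of neighbouring groups. Cybb lies on the X chromosome (9435252 to 9487766, GRCm38.p6). The MA9 libraries held transcripts of 4 Y-linked genes at 149 to 165 CPM in sum, against at most 0.629 CPM in any other library, and Xist at 323 to 373 CPM, against 755 to 981 CPM in all others. The part of this in the Cybb result was not tested.

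Cyba, the membrane partner of Cybb, moved little. It stood at 380.0, 386 and 413 CPM in BN1, at 439, 370.4 and 435 CPM in MA9 and at 482, 474 and 464 CPM in ME, against 411, 481 and 459 CPM in WT. The WT libraries overlapped those of each leukemia. Cyba was lower in BN1 by a log2 fold change of -0.20 ± 0.06 (adjusted p = 0.00451), a call that was lost when counts were scaled by library totals alone (adjusted p = 0.285). The log2 fold change was -0.12 ± 0.06 in MA9 (adjusted p = 0.0698, 95% interval -0.24 to -0.00 from the approximate SE) and 0.07 ± 0.06 in ME (adjusted p = 0.262, interval -0.04 to 0.19). The MA9 value was called by DESeq2 (-0.18, adjusted p = 0.0119), under RLE scaling and without WT replicate 1, MA9 replicate 1 or MA9 replicate 3 (log2 fold changes of -0.18, -0.16 and -0.15), and was above 0 with library totals (0.05). The ME value was called with library totals (0.19, adjusted p = 0.00641). Between leukemias, Cyba was lower in BN1 than in ME (-0.27 ± 0.06, adjusted p = 0.000344) and lower in MA9 than in ME (-0.19 ± 0.06, adjusted p = 0.0114), the last call being lost without MA9 replicate 2 (-0.12, adjusted p = 0.0838). BN1 and MA9, neighbours in the order, had a difference of -0.08 ± 0.06 (adjusted p = 0.262), which was called without MA9 replicate 2 (-0.15). Cyba lies on chromosome 8 from 122424771 to 122432940.

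**Figure D1:**
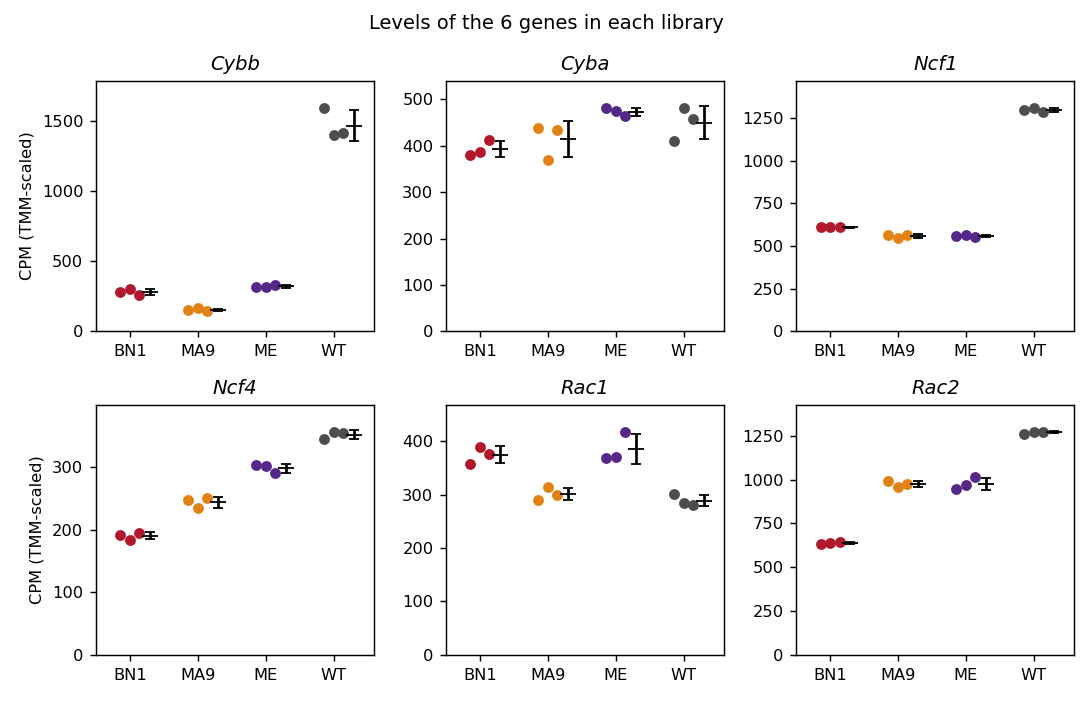
TMM-scaled CPM of the 6 genes in each library (points, 3 per group) with the group mean and SD (black bars), from a baseline of 0, for BN1, MA9, ME and WT. Cybb is at most 333 CPM in leukemia and at least 1401 CPM in WT, Cyba groups overlap WT, and Rac1 is higher in BN1 and ME than in WT.

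Of the cytosolic subunits, Ncf1 fell by nearly the same amount in the 3 leukemias. Ncf1 encodes p47phox, the organiser that docks the cytosolic complex onto p22phox. Its level was 609.6, 608 and 613 CPM in BN1, 566, 546 and 562 CPM in MA9 and 560.4, 564 and 555 CPM in ME, against 1295, 1309.6 and 1288 CPM in WT. WT libraries stood apart from all leukemia libraries, with SDs of 2.51 to 11.2 CPM within groups. Against WT this was a log2 fold change of -1.09 ± 0.04 in BN1 (adjusted p = 1.03e-19), -1.22 ± 0.04 in MA9 (adjusted p = 8.36e-21) and -1.21 ± 0.04 in ME (adjusted p = 9.77e-21). BN1 was above both MLL leukemias without overlap, by 0.13 ± 0.04 against MA9 (adjusted p = 0.00519) and by 0.13 ± 0.04 against ME (adjusted p = 0.0071). The BN1 against MA9 call was lost with library totals (0.08, adjusted p = 0.0716). MA9 and ME did not differ beyond their spread (-0.00 ± 0.04, adjusted p = 0.962, 95% interval -0.08 to 0.07, with a sign that flipped under upper-quartile and library total scaling and without MA9 replicate 2).

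Ncf1 lies on chromosome 5 from 134220053 to 134229628. In GENCODE M21 it overlaps Gtf2ird2, a gene on the opposite strand, over 4303 bases, and the strand setting of the counting was not stated in the sources used here. Gtf2ird2 stood at 17.4 ± 0.547 CPM in BN1, 20.3 ± 0.619 in MA9 and 18.5 ± 0.925 in ME, against 31.7 ± 0.890 in WT (SD, n = 3 each), so its counts were few beside those of Ncf1.

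Ncf4 fell in a graded way. It encodes p40phox, which binds a phosphoinositide of the phagosome membrane and keeps the complex there. Its level was 191, 184 and 195 CPM in BN1, 247, 234 and 249.8 CPM in MA9 and 303, 301 and 290.0 CPM in ME, against 344, 357 and 355 CPM in WT. No group overlapped another, and the order from low to high was BN1, MA9, ME and WT. Relative to WT its log2 fold change was -0.89 ± 0.04 in BN1 (adjusted p = 9.59e-17), -0.53 ± 0.04 in MA9 (adjusted p = 8.37e-12) and -0.24 ± 0.04 in ME (adjusted p = 1.49e-05). BN1 was lower than MA9 (-0.36 ± 0.04, adjusted p = 3.88e-08) and ME (-0.65 ± 0.04, adjusted p = 2.67e-13), and MA9 was lower than ME (-0.29 ± 0.04, adjusted p = 2.91e-06). With library totals the ME fold change was -0.12 and still passed (adjusted p = 0.0147). Ncf4 lies on chromosome 15 from 78244164 to 78262582.

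The Rac genes went opposite ways in BN1 and ME, while in MA9 Rac2 fell and Rac1 was not called. Rac2, the GTPase of the neutrophil oxidase, stood at 630.3, 639 and 643 CPM in BN1, 990.3, 959 and 975 CPM in MA9 and 948, 968 and 1013 CPM in ME, against 1262, 1274 and 1273 CPM in WT. All leukemia libraries lay below WT, and BN1 lay below the other leukemias. Set against WT, the log2 fold change was -0.99 ± 0.04 in BN1 (adjusted p = 1.18e-18), -0.38 ± 0.04 in MA9 (adjusted p = 1.47e-09) and -0.38 ± 0.04 in ME (adjusted p = 1.74e-09). BN1 was lower than MA9 (-0.61 ± 0.04, adjusted p = 1.4e-13) and lower than ME (-0.62 ± 0.04, adjusted p = 1.5e-13). MA9 and ME overlapped (-0.00 ± 0.04, adjusted p = 0.985, 95% interval -0.08 to 0.08), with a sign that flipped in 6 of the 22 alternatives other than the 2-fold test. Rac2 lies on chromosome 15 from 78559169 to 78572783.

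Rac1, the widely expressed paralogue, was higher in BN1 and ME than in WT. It stood at 357, 389.9 and 377 CPM in BN1, 290.0, 313 and 299 CPM in MA9 and 368, 370.2 and 418 CPM in ME, against 301, 285 and 281 CPM in WT. BN1 and ME overlapped each other and lay above WT, while MA9 overlapped WT. Against WT, Rac1 had a log2 fold change of 0.38 ± 0.05 in BN1 (adjusted p = 1.49e-07), 0.06 ± 0.05 in MA9 (adjusted p = 0.289, 95% interval -0.04 to 0.16) and 0.42 ± 0.05 in ME (adjusted p = 2.51e-08). The MA9 value was called with upper-quartile scaling (0.13) and with library totals (0.23, adjusted p = 0.000107). Rac1 was higher in BN1 than in MA9 (0.32 ± 0.05, adjusted p = 3.39e-06), lower in MA9 than in ME (-0.36 ± 0.05, adjusted p = 1.37e-06), and not called between BN1 and ME (-0.04 ± 0.05, adjusted p = 0.499, and 0.02 without ME replicate 3). ME replicate 3 had the highest Rac1 level of any library.

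Rac1 lies on chromosome 5 from 143505481 to 143528031. In GENCODE M21 its 3′ end overlaps Daglb on the opposite strand over 2309 bases. Daglb stood at 70.3 ± 2.85 CPM in BN1, 115 ± 2.34 in MA9 and 88.2 ± 2.01 in ME, against 48.2 ± 1.95 in WT (SD, n = 3 each), and its share in the Rac1 counts was not tested.

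**Figure D2:**
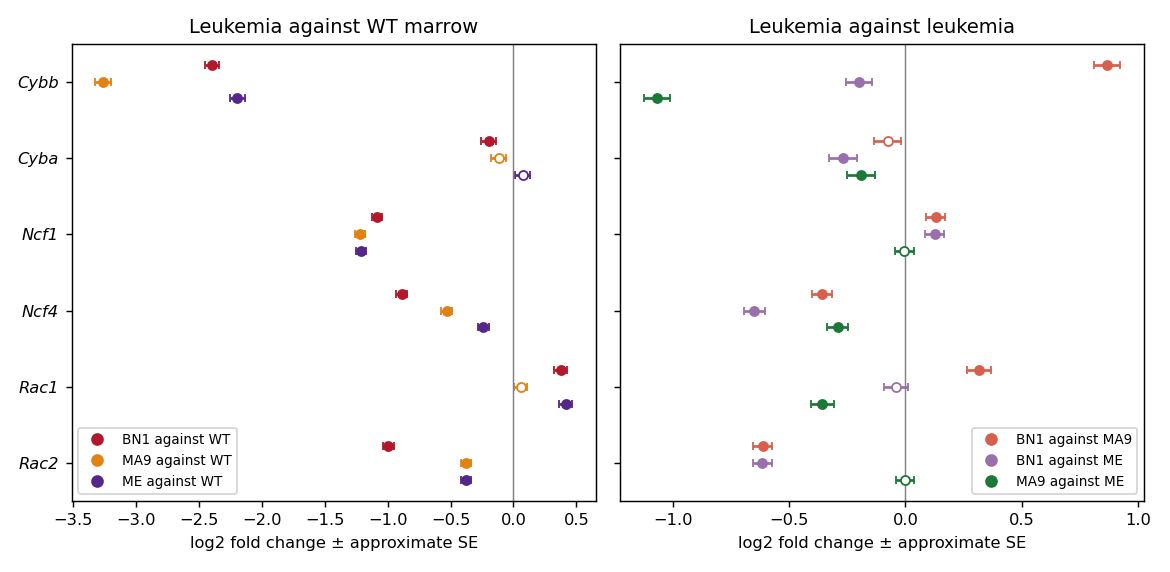
Log2 fold changes of the 6 genes with their approximate SE, for each leukemia against WT and for the leukemias against each other; filled points passed an adjusted p of 0.05 and open points did not. Against WT, Cybb lies between -3.26 and -2.20, the cytosolic subunits between -1.22 and -0.24, and Rac1 is the only gene with called values above 0.

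Counted over the 6 genes, 1 was called higher and 5 lower in BN1 against WT, where 79.2% of all genes tested were called (38.4% higher and 40.8% lower). In MA9 against WT none was higher and 4 were lower, with a background of 80.1% (39.3% higher and 40.8% lower). In ME against WT 1 was higher and 4 were lower, with a background of 79.2% (39% higher and 40.2% lower). Being called at all was therefore common, and the sizes and directions carry the description. The median log2 fold change of the 6 genes was -0.94 in BN1, -0.46 in MA9 and -0.31 in ME, against a median of -0.01 over all genes in each of these comparisons. Without regard to sign, the median change over all genes was 0.71 in BN1, 0.75 in MA9 and 0.72 in ME. A lower log2 fold change than that of Cybb was held by 14.1%, 9.60% and 14.2% of all genes tested. For Ncf1 these shares were 23.5%, 21.3% and 21.6%, for Rac2 24.7%, 37.3% and 37.0%, and for Ncf4 26.3%, 33.2% and 41.5%. With a required change of at least 2-fold (glmTreat), Cybb and Ncf1 were called in each leukemia against WT, where 31.1%, 31.4% and 30.6% of all genes were called in BN1, MA9 and ME. In BN1 against MA9, 3 of the 6 genes were higher and 2 lower, with 67.7% of all genes called (32.8% higher and 34.9% lower). For BN1 against ME, 1 was higher and 4 were lower, with 64.7% called (31.8% higher and 33% lower). For MA9 against ME, none was higher and 4 were lower, with 40.6% called (20.2% higher and 20.4% lower). Groups did not overlap for 5 of the 6 genes in BN1 against WT, 4 in MA9 against WT and 5 in ME against WT, where 80.3%, 80.9% and 79.8% of all genes did not overlap. Between leukemias this held for 5 genes in BN1 against MA9, 5 in BN1 against ME and 4 in MA9 against ME, with backgrounds of 70.1%, 66.9% and 48.6%.

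Compared per length (CPM per kilobase of transcript), the balance between the RNA levels of these genes differed between groups. The proteins of the complex were not measured. Cybb stood at 58.8 ± 4.17 CPM per kilobase in BN1, 32.2 ± 1.77 in MA9 and 67.6 ± 2.15 in ME, against 309.5 ± 23.1 in WT (SD, n = 3 each). Its partner Cyba lay between 511 and 556 CPM per kilobase in BN1, 498 and 589 in MA9, and 624 and 648 in ME, against 553 and 646 in WT. Cyba was the most abundant of the 6 genes per length in every group, and Cybb the least abundant in each leukemia. In WT the least abundant per length was Rac1, at 121 to 129 CPM per kilobase. Lengths were taken from the longest GENCODE M21 transcript with a RefSeq match, inside the RefSeq bounds, and ranged from 744 bases (Cyba) to 4752 bases (Cybb).

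The ratio of Cybb to Cyba per length was 0.112 ± 0.0120 in BN1, 0.0584 ± 0.00903 in MA9 and 0.106 ± 0.00539 in ME, against 0.516 ± 0.0810 in WT. No leukemia library reached the lowest WT library, at 0.456. The ratio of Rac2 to Rac1 was 1.30 ± 0.0480 in BN1, 2.49 ± 0.136 in MA9 and 1.94 ± 0.0770 in ME, against 3.37 ± 0.136 in WT, with no overlap between groups. Rac2 therefore stayed above Rac1 per length in every library, with the smallest margin in BN1. The difference in mean log2 ratio of Rac2 to Rac1 from WT was -1.37 for BN1, -0.44 for MA9 and -0.79 for ME. That of Cybb to Cyba was -2.20, -3.14 and -2.27. Each of these had p = 0.1 in a two-sided exact permutation test, the smallest that 3 against 3 libraries allow. Cybb to Ncf1 stood at 0.266 ± 0.0199 in BN1, 0.160 ± 0.0119 in MA9 and 0.334 ± 0.0130 in ME, against 0.659 ± 0.0510 in WT.

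**Figure D3:**
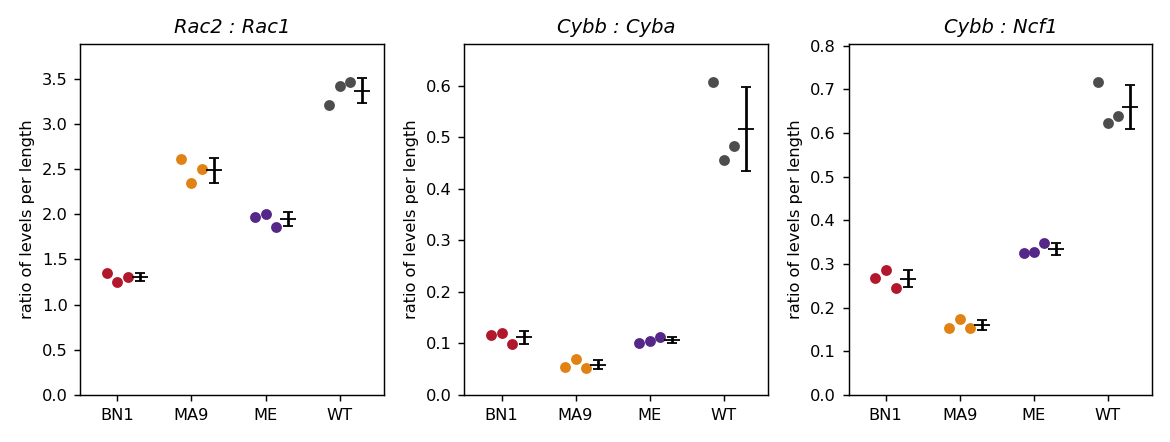
Ratios of levels per transcript length in each library (points) with group mean and SD (black bars), from a baseline of 0, for Rac2 to Rac1, Cybb to Cyba and Cybb to Ncf1. Rac2 to Rac1 is lowest in BN1 (mean 1.30) and highest in WT (mean 3.37), and Cybb to Cyba is at most 0.121 in leukemia and at least 0.456 in WT.

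Each gene was also set against 13323 other genes for the likeness of its course over the 12 libraries, as the root mean square (RMS) difference of centred log2 CPM. Nearest to Cybb was Lsp1, a leukocyte actin-binding protein (0.16), then Rdh12 (0.19) and Pirb, an inhibitory receptor of myeloid cells (0.22). Lsp1 stood at 192 CPM in BN1, 106 in MA9 and 188 in ME, against 937 in WT. The nearest to Ncf1 were Fgd3, Parp4 and Ppp6r2 (0.05 to 0.06), and those to Cyba were Zfpl1, Tspo and Ptpn18 (0.04 to 0.05). Sqstm1, Abl1 and Cotl1 were nearest to Ncf4 (0.06 to 0.07), and Mat2b, Eif2s3x and Kpna1 to Rac1 (0.05 to 0.06). Ncapd2, Actg1 and Lmnb1 were nearest to Rac2 (0.05 to 0.06).

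Among themselves the 6 genes differed in the direction or the size of their changes. The measure is not scaled for size, so genes that move together by different amounts also stand apart. Ncf4 and Rac2 were the most alike of them (RMS difference 0.12), Rac2 being the 45th nearest gene to Ncf4 and Ncf4 the 67th nearest to Rac2. Cybb was far from its partner Cyba (1.17), which ranked 4534th in nearness to it, and from Ncf1 (0.74), which ranked 899th. In the same units Cybb varied by 1.20 around its own mean, Ncf1 by 0.51 and Cyba by 0.13. The distance of Cybb from Ncf1 thus includes the larger size of its fall.

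Non-phagocyte members of the NADPH oxidase family were scarce. Noxo1, the organiser of a non-phagocyte oxidase, stood at 3.38 ± 0.222 CPM in BN1, 3.49 ± 0.571 in MA9 and 2.88 ± 0.0718 in ME, against 2.50 ± 0.487 in WT. Its calls in BN1 (0.44 ± 0.20, adjusted p = 0.0431) and MA9 (0.49 ± 0.20, adjusted p = 0.025) were lost in DESeq2 and without WT replicate 1 or 3. The BN1 call was also lost without BN1 replicate 2 or 3, and the MA9 call without MA9 replicate 2. Nox3 and Nox4 had no count in any library. Nox1 had 5 counts over the BN1 libraries, 1 in MA9 and 10 in ME, against 13 in WT.

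Among 6 companions of the oxidase, Nrros and Prdx6 rose in all 3 leukemias. Nrros, an endoplasmic reticulum protein known to promote the breakdown of gp91phox, stood at 373, 369.7 and 401 CPM in BN1, 333, 312 and 335 CPM in MA9 and 355, 362 and 352 CPM in ME, against 169.7, 184 and 177 CPM in WT. Every leukemia library was above every WT library, opposite in direction to Cybb RNA. A link between Nrros and Cybb RNA was not tested. The Nrros log2 fold change was 1.11 ± 0.05 in BN1 (adjusted p = 2.55e-18), 0.89 ± 0.05 in MA9 (adjusted p = 4.49e-16) and 1.01 ± 0.05 in ME (adjusted p = 2.3e-17). Prdx6, a peroxiredoxin that binds oxidase subunits, rose by 0.50, 0.46 and 0.60 (log2).

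Hvcn1, the proton channel that balances the charge moved by the oxidase, fell to 55.1 ± 1.08 CPM in BN1, 30.9 ± 1.97 in MA9 and 27.8 ± 1.24 in ME, against 108 ± 4.43 in WT. Its log2 fold change was -0.98 in BN1 and -1.81 in MA9. Coro1a, an actin regulator that binds p40phox, fell in BN1 (-1.48), MA9 (-0.86) and ME (-0.79). The membrane linker Msn fell too (-0.76, -1.02 and -0.75). Over the list, 2 genes rose and 3 fell in BN1, and 2 rose and 4 fell in MA9 and in ME, with medians of -0.41, -0.74 and -0.59. Over all genes tested 38.4% to 39.3% were called higher and 40.2% to 40.8% lower in these 3 comparisons.

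Rac activators were called at shares near those of all genes. Of 15 tested, mostly exchange factors, 6 rose and 7 fell in BN1, 6 rose and 6 fell in MA9, and 7 rose and 7 fell in ME, with medians of -0.09, 0.01 and 0.07. The shares were 40% higher and 46.7% lower in BN1, 40% and 40% in MA9, and 46.7% and 46.7% in ME. Prex1, an exchange factor of neutrophils, fell to 138 ± 3.45 CPM in BN1, 99.3 ± 8.01 in MA9 and 109 ± 8.02 in ME, against 319 ± 4.20 in WT. Tiam2 also fell in each (log2 fold changes of -1.51, -2.14 and -2.20), as did Vav2 (-1.90, -0.78 and -1.03). Vav3 rose by 0.68, 0.57 and 0.78. Dock1 went different ways, with log2 fold changes of 1.83 in BN1, -1.44 in MA9 and 0.71 in ME.

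Of 11 tested genes that restrain Rac or bind it downstream, 2 rose and 9 fell in BN1, and 4 rose and 7 fell in MA9 and in ME, with medians of -0.31, -0.64 and -0.33. Those lower made up 81.8% of the list in BN1 and 63.6% in MA9 and ME, against 40.8%, 40.8% and 40.2% of all genes. Arhgap25, a Rac GTPase-activating protein of phagocytes, fell in BN1, MA9 and ME (-1.98, -1.49 and -1.52). Arhgap9 fell likewise (-1.52, -1.37 and -1.49). Bcr fell most in BN1 (-2.04, -1.02 and -0.51), as did the formin Fmnl1 (-1.86, -1.12 and -0.87). Chn2, a Rac GTPase-activating protein, rose to 23.2 ± 1.44 CPM in MA9 and 16.2 ± 0.930 in ME, against 8.65 ± 1.14 in WT (log2 fold changes of 1.42 and 0.91). Arhgdia, which holds small GTPases in the cytosol, rose by 0.32 in MA9 and 0.43 in ME. In BN1 both Chn2 (-0.31) and Arhgdia (-0.19) were called lower than in WT.

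Of 22 kinases and related enzymes upstream of the oxidase, 4 rose and 13 fell in BN1, 6 rose and 13 fell in MA9, and 5 rose and 13 fell in ME, with medians of -0.28, -0.31 and -0.48. Those lower made up 59.1% of the list in each, against 40.8%, 40.8% and 40.2% of all genes. Those higher made up 18.2%, 27.3% and 22.7%, against 38.4%, 39.3% and 39% of all genes. Fgr, a Src family kinase, fell in each leukemia. It stood at 126 ± 5.27 CPM in BN1, 17.8 ± 0.925 in MA9 and 48.3 ± 3.06 in ME, against 342 ± 3.20 in WT, with its lowest level in MA9 as for Cybb. Pak1, a Rac-bound kinase that can phosphorylate p47phox, rose to 80.4 ± 2.17 CPM in BN1, 61.0 ± 1.90 in MA9 and 75.0 ± 4.57 in ME, against 40.1 ± 1.71 in WT. Prkcb, a protein kinase C that phosphorylates p47phox, fell in BN1 to 101 ± 1.85 CPM against 313 ± 16.6 in WT (-1.63 ± 0.05, adjusted p = 2.05e-21). In MA9 Prkcb had a log2 fold change of -0.11 (adjusted p = 0.0404), its libraries overlapped WT, and the value was above 0 with library totals (0.06); the call was lost without WT replicate 1, BN1 replicate 1 or 2, or MA9 replicate 1 or 3. In ME it was -0.05 (adjusted p = 0.364, and above 0 with upper-quartile and library total scaling, 0.00 and 0.06). Prkca fell in all 3 (-5.42, -2.56 and -7.05), with 38, 244 and 10 counts over the libraries of BN1, MA9 and ME, against 1264 in WT. Prkcz rose in MA9 (4.50 ± 0.14), to 39.5 ± 0.435 CPM against 1.74 ± 0.162 in WT, and fell in BN1 (-1.79) and ME (-1.75).

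Of 17 genes for receptors that prime or trigger the oxidase, 5 rose and 12 fell in BN1, 1 rose and 14 fell in MA9, and 2 rose and 11 fell in ME, with medians of -1.36, -1.43 and -1.03. Those lower made up 70.6% of the list in BN1, 82.4% in MA9 and 64.7% in ME, against 40.8%, 40.8% and 40.2% of all genes. The formyl peptide receptor gene Fpr1 stood at 19.2 ± 2.83 CPM in BN1, 0.186 ± 0.119 in MA9 and 4.16 ± 0.839 in ME, against 128 ± 2.45 in WT. Fpr2 fell as well (log2 fold changes of -2.88, -5.91 and -4.14), as did the complement receptor C5ar1 (-3.31, -3.99 and -2.95). Fcgr1, a high-affinity receptor for antibody, had log2 fold changes of -3.79, -6.40 and -7.30. It had 113, 16 and 8 counts over the libraries of BN1, MA9 and ME, against 1213 in WT. Among those that rose was the tumour necrosis factor receptor gene Tnfrsf1b in BN1, at 369 ± 7.18 CPM against 195 ± 4.64 in WT (0.92). In ME the Toll-like receptor gene Tlr4 rose by 0.60 and the antibody receptor gene Fcgr3 by 0.41. These genes did not rise in every leukemia. Tnfrsf1b stood at 112, 119 and 114 CPM in MA9 and 167, 175 and 167 CPM in ME, against 195, 199 and 190 CPM in WT. Tlr4 stood at 20.9, 22.3 and 19.5 CPM in MA9, against 38.3, 36.7 and 36.7 CPM in WT. Fcgr3 rose in MA9 (0.17) and fell in BN1 (-0.20). Mature neutrophil markers, given above, were lower in the same groups, and their part in these values was not tested.

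**Figure D4:**
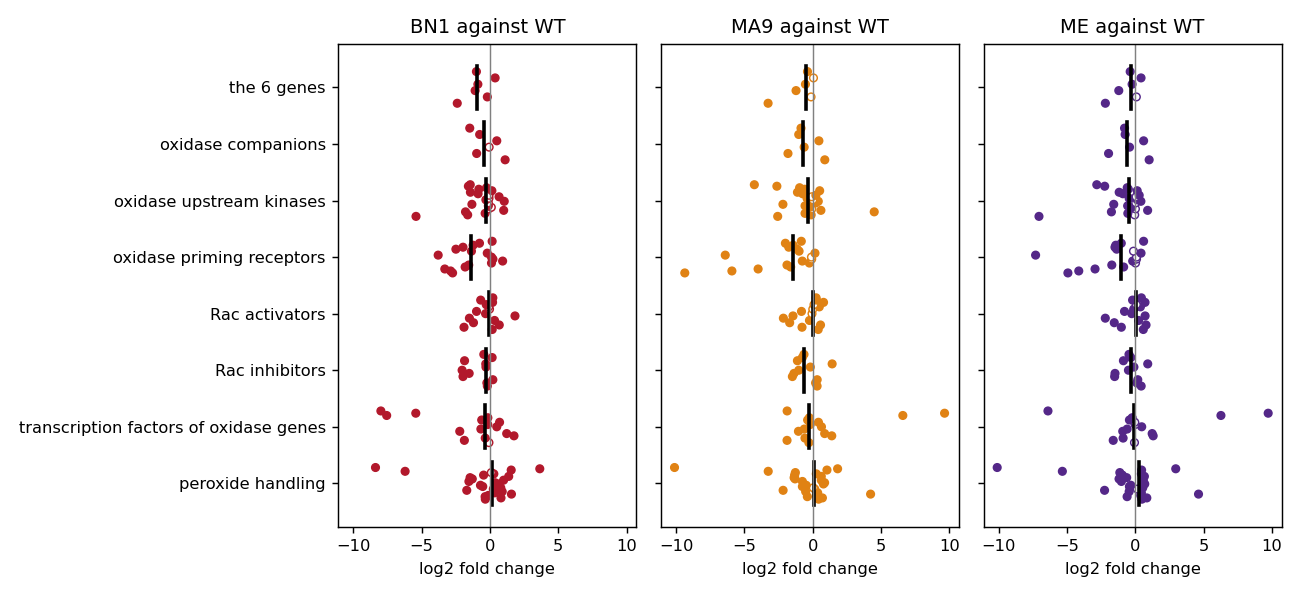
Log2 fold changes against WT of every tested gene of the 6 genes and of 7 pathway lists, for BN1, MA9 and ME; filled points passed an adjusted p of 0.05, open points did not, and black bars mark list medians. The priming receptors have the lowest medians (-1.36, -1.43 and -1.03), and the Rac activators lie near 0.

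Of 15 tested transcription factors known to act on oxidase genes, 4 rose and 10 fell in BN1, 6 rose and 9 fell in MA9, and 5 rose and 7 fell in ME, with medians of -0.35, -0.24 and -0.06. Those lower made up 66.7% of the list in BN1, 60% in MA9 and 46.7% in ME, against 40.8%, 40.8% and 40.2% of all genes. Spi1 (PU.1), a myeloid factor that binds the promoters of several oxidase genes, was named outside the rule for its role. It stood at 439, 442 and 469.8 CPM in BN1, 398, 374 and 403 CPM in MA9 and 469, 466 and 427 CPM in ME, against 451, 492 and 482 CPM in WT. MA9 lay below WT without overlap (-0.28 ± 0.05, adjusted p = 7.65e-06, and not called with library totals, -0.11), the other leukemias overlapped WT, and neither was called. DESeq2 and RLE scaling called small falls in BN1 and ME (-0.13 and -0.12), and library totals turned both above 0 (0.05 each).

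Irf8, also named for its role, fell to 316 ± 15.9 CPM in BN1, 272 ± 12.4 in MA9 and 216 ± 8.24 in ME, against 402 ± 17.2 in WT. Cebpe, a factor of late granulocyte development, fell to 31.2 ± 2.94 CPM in BN1, 70.4 ± 4.79 in MA9 and 76.3 ± 4.59 in ME, against 145 ± 5.57 in WT. Irf1 fell to 39.0 ± 2.90 CPM in BN1, 39.0 ± 4.15 in MA9 and 46.6 ± 0.399 in ME, against 143 ± 2.18 in WT. Cebpa, which acts earlier in the lineage, rose by 1.75, 1.40 and 1.30. Hoxa9 and Hoxa10, homeobox factors reported to act on oxidase promoters, rose in MA9 (6.60 and 9.65) and ME (6.26 and 9.72). In BN1 Hoxa9 had 1 count and Hoxa10 none over the 3 libraries, against 208 and 14 counts in WT. Gata2 fell in all 3 (-7.99, -1.87 and -6.40), with 12, 755 and 31 counts over the libraries of BN1, MA9 and ME, against 2432 in WT.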

How the data were processed

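The authors deposited raw read counts per gene symbol for 12 libraries. Per the submitters' processing notes, HISAT2, featureCounts, DESeq2 and the build mm10 were used (versions, annotation and strand setting not given in the sources used here). Following the labels' protocols, RNA was purified on RNeasy columns and made into stranded TruSeq mRNA libraries.

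Genes were filtered with filterByExpr (15334 kept) and scaled by TMM (factors 0.928 to 1.05). All libraries entered 1 robust quasi-likelihood fit in edgeR, with a coefficient of variation of 5.87%. Adjusted p-values are Benjamini-Hochberg over all genes tested. The approximate SE is the log2 fold change divided by the root of F. Ratios used counts plus 1. Members and gene lists were chosen with earlier results of these data known. Named list genes were up to 3 called genes per direction and leukemia against WT by size, leaving out overlapping groups and genes under 5 CPM in both. Noxo1 and Nox1, Spi1 and Irf8, and the overlapping genes were named outside that rule. Lists not otherwise reported held T and NK cell markers (at most 147 CPM in leukemia and at least 184 in WT in sum), megakaryocyte markers (at most 8.12 and at least 52.7) and eosinophil, basophil and mast cell markers (at most 23.9 and at least 427). The T and NK maximum came from BN1, where Nkg7 alone averaged 144 CPM, against 40.0 CPM in WT (log2 fold change 1.85). The 7 other markers of that list were called lower there. Across MA9 libraries the T and NK sum reached at most 26.0 CPM, and across ME libraries at most 9.06 CPM. The megakaryocyte maximum also came from BN1, where Gp1ba averaged 6.72 CPM, against 4.02 CPM in WT (log2 fold change 0.745, called higher). The 4 other megakaryocyte markers were called lower in BN1. One list gene, Cybc1, was not matched by symbol and was not analysed here. Some list genes are not reported here.

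Alternatives were DESeq2, limma-voom, RLE, upper-quartile and library total scaling, other filters, fits to only the groups compared, a replicate block, each library left out, a table without haemoglobin and structural RNA-like genes, and a 2-fold minimum. In simulated data with 200 genes changed among 15334, 74% to 88% of 2-fold changes were found, by comparison, with 3.73% to 6.29% false calls. In the real data 79.2% to 80.1% of genes were called against WT. The simulation did not cover so broad a change, and its rates may not hold here. Replicates differed by more than sampling noise (mean chi-square 2.00 to 35.2, the highest values being those of ME replicate 3). Coordinates are RefSeq for GRCm38.p6, and promoter sequences are from RefSeq. Software was Python 3.11.15 (matplotlib 3.10.9, scipy 1.17.1, numpy 2.4.6, pandas 2.3.3) and R 4.3.3 with DESeq2 1.42.0, limma 3.58.1 and edgeR 4.0.16.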

Additional observations from a re-analysis of the deposited data

Results flagged for a closer look

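In all, 3 differences between leukemias concern genes that were called against WT in 1 leukemia and not in the other, with the difference itself passing edgeR's quasi-likelihood test. Rac1 was higher in BN1 than in MA9 by 0.32 (log2, adjusted p = 3.39e-06), being called higher than WT in BN1 and not in MA9. Rac1 was likewise lower in MA9 than in ME (-0.36, adjusted p = 1.37e-06). Cyba was lower in BN1 than in ME (-0.27, adjusted p = 0.000344), being called lower than WT in BN1 and not in ME. In each of these the libraries of the 2 leukemias did not overlap.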

How the results depend on the processing

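Against WT, Cybb and Ncf1 kept direction and call in all 3 leukemias under every alternative run. So did Ncf4 and Rac2 in all 3, and Rac1 in BN1 and ME, under every alternative other than the 2-fold test. Cyba, and Rac1 in MA9, changed with the scaling. Scaling by library totals alone put the median of all genes against WT at 0.11 for BN1, 0.16 for MA9 and 0.10 for ME (-0.01 with TMM). It gave Cyba -0.0700 in BN1 (call lost), 0.0542 in MA9 (sign turned) and 0.19 in ME (call gained), and Rac1 0.23 in MA9 (call gained). Between leukemias it gave Ncf1 0.0819 in BN1 against MA9 and Cyba -0.13 in MA9 against ME (calls lost), and in MA9 against ME turned Ncf1 to 0.0537 and Rac2 to 0.0563. It also turned Spi1 (0.0475 in BN1 and 0.0515 in ME) and Prkcb (0.0624 in MA9 and 0.0647 in ME), and split MA9 against ME into 3888 higher and 2509 lower genes, against 3095 and 3130. DESeq2 and RLE scaling called Cyba in MA9 against WT (-0.18 in both) and put Rac2 in MA9 against ME at 0.00051 and 0.00044. Upper-quartile scaling called Rac1 in MA9 against WT (0.13), and turned Ncf1 (0.0177) and Rac2 (0.0198) in MA9 against ME and Prkcb in ME (0.00273). The cause was not tested.

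A required 2-fold change left 4773, 4813 and 4692 genes called in BN1, MA9 and ME against WT, with 2 of the 6 genes each. It left 2613 in BN1 against MA9, 2298 in BN1 against ME and 1174 in MA9 against ME, with 0 of the 6. Calls lost by that test were Cyba (-0.20), Ncf4 (-0.89), Rac1 (0.38) and Rac2 (-0.99) in BN1 against WT. In MA9 against WT they were Ncf4 (-0.53) and Rac2 (-0.38), and in ME against WT Ncf4 (-0.24), Rac1 (0.42) and Rac2 (-0.38). BN1 against MA9 lost Cybb (0.87), Ncf1 (0.13), Ncf4 (-0.36), Rac1 (0.32) and Rac2 (-0.61). BN1 against ME lost Cybb (-0.20), Cyba (-0.27), Ncf1 (0.13), Ncf4 (-0.65) and Rac2 (-0.62). MA9 against ME lost Cybb (-1.07), Cyba (-0.19), Ncf4 (-0.29) and Rac1 (-0.36). With 1 library left out at a time, Cyba ran from -0.18 to -0.0424 in MA9 against WT, from -0.15 to -0.0317 in BN1 against MA9 and from -0.24 to -0.12 in MA9 against ME. Rac1 ran from -0.0756 to 0.0221 in BN1 against ME. In MA9 against ME, Ncf1 ran from -0.0165 to 0.00795 and Rac2 from -0.0251 to 0.0211. Replicate numbers did not pair the libraries (same-number correlations of -0.0806 to 0.0625), and a replicate block gave 12042, 12162 and 12014 calls against WT in BN1, MA9 and ME, against 12146, 12284 and 12152 without it, and changed no call of the 6 genes.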

Other observations

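Of 26 genes that handle the peroxide made from superoxide, 13 rose and 12 fell in each leukemia against WT, with medians of 0.17 in BN1, 0.10 in MA9 and 0.27 in ME. These shares, 50% higher and 46.2% lower, stand beside 38.4% to 39.3% higher and 40.2% to 40.8% lower over all genes tested, which are split about evenly too. Mpo, the peroxidase of primary granules that turns hydrogen peroxide into hypochlorous acid, reached 12054 ± 153 CPM in BN1, 3416 ± 55.3 in MA9 and 7480.0 ± 271 in ME, against 964 ± 34.5 in WT. Its log2 fold changes were 3.64, 1.82 and 2.96. The secreted glutathione peroxidase Gpx3 rose by 1.57 in BN1, 4.24 in MA9 and 4.62 in ME. Srxn1, which repairs overoxidised peroxiredoxins, rose by 1.55, 1.04 and 0.46. Prdx2, abundant in red cells, fell in each (-1.70, -2.16 and -2.25), and Nqo1 had log2 fold changes of -6.21, -3.25 and -5.34. Nqo1 had 7, 50 and 11 counts over the libraries of BN1, MA9 and ME, against 423 in WT. Epx, the eosinophil peroxidase, had 1 count in BN1 and none in MA9 or ME over 3 libraries each, against 366 counts in WT.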
